A study of Mus musculus with 4 samples.

Results

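The mouse mitochondrial genome is a small circle that encodes 13 proteins of the respiratory chain, 22 tRNAs and 2 ribosomal RNAs, and all 37 were found as rows of the deposited gene table by the prefix mt- of their symbols, among 37305 rows in all. The table holds RNA sequencing values of mouse muscle, labelled GTN muscle, from C57BL/6 animals kept conventionally. Libraries F and G are of the genotype Con-TD, libraries A and B of MCK-TD, and values by library are given in the order F, G, A, B. The labels expand none of these names, give no age, state no altered gene and do not say what drives or limits the genetic change. Nor do they say that each library is another animal; the p-values below rest on the spread among these 4 libraries, which may be technical. Total RNA went through an mRNA enrichment before library preparation, and neither its method nor the use of strand in counting is given in the sources used here.

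Both strands of the circle are transcribed as long RNAs, each covering many genes. The tRNAs lie between the protein and ribosomal RNA genes and are cut out of these long RNAs by RNase P at the 5′ end and by Elac2 at the 3′ end, which also frees the neighbouring mRNAs. Skeletal muscle is rich in mitochondria, and mitochondrial RNAs are among its most abundant transcripts. In the annotation, 28 of the mitochondrial genes lie on the plus strand and 9 on the minus strand, which are 8 tRNA genes and mt-Nd6. Without strand in the counts, RNA of a minus-strand tRNA cannot be told apart from plus-strand RNA that runs across the same bases.

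The results turn on 8 tRNA genes, shown 5′ to 3′ on their own strand as DNA letters, from the GENCODE M21 transcripts of GRCm38, with the anticodon that a script located in capitals. The first set is mt-Ta, mt-Tn, mt-Tc and mt-Ty (alanine, asparagine, cysteine and tyrosine), neighbours on the minus strand between mt-Nd2 with mt-Tw on one side and mt-Co1 on the other, shown because all 4 were lower in MCK-TD.
mt-Ta: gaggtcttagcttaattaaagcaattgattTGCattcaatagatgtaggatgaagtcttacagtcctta
mt-Tn: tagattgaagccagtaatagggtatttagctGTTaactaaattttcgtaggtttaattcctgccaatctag
mt-Tc: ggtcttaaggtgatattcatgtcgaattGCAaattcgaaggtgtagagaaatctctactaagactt
mt-Ty: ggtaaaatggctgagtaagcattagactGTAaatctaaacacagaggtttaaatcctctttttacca
The second set is mt-Tq, mt-Tm and mt-Tv (glutamine, methionine and valine), shown because they were higher in MCK-TD, and mt-Te (glutamate), the mitochondrial row with the highest value in every library.
mt-Tq: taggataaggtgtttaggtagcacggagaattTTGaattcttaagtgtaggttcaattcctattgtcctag
mt-Tm: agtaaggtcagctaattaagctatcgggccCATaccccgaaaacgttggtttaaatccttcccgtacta
mt-Tv: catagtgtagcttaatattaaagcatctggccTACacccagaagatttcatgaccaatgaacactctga
mt-Te: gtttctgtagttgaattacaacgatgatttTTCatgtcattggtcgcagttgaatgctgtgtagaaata
The 8 sequences are 66 to 71 bases long, and in each the anticodon sits in a loop closed by a stem of 5 base pairs.

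That length sets how the deposited values read. The unit is FPKM, fragments scaled by transcript length in kilobases and by the depth of the library, and the kilobases are an effective length, the number of places a fragment can start. Within tRNA rows of equal length the deposited values rose in equal steps, the worth of 1 fragment. Of 55 tRNA values worth under 200 fragments, 53 lay within 0.03 of a whole number of such steps and the other 2 within 0.03 of the midpoint between whole numbers. A normal distribution of fragment lengths with a mean of 200 bases, an SD of 80 and a shortest length of 45 gave the steps of 5 different tRNA lengths with a single library total, and at 70 bases the lowest value then stood for 1.5 fragments. The totals so estimated were about 24100000 and 22500000 fragments in Con-TD and 23000000 and 22800000 in MCK-TD. A check in library Con-TD F alone used other single-transcript genes estimated at few fragments. The same curve and its total turned 44.4% of 1086 such genes into whole fragments, against 4.34% to 5.87% with the total set 5% or 10% too low or too high. Estimated fragments below are FPKM converted in this way, and intervals on them cover counting error only.

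On this curve the effective length of a tRNA row is 0.105 to 0.496 bases, so a tRNA row of few fragments can have a high FPKM. All tRNA rows together made up 63.0% and 64.2% of the FPKM sum of the Con-TD libraries, and 50.7% and 55.4% in MCK-TD. Counted as estimated fragments, the same rows were 0.0541% and 0.0549% of the Con-TD libraries and 0.0308% and 0.0365% of the MCK-TD libraries. The 7 protein rows above 0 in every library held 12.2% and 12.9% of the fragments in Con-TD and 14.9% and 12.6% in MCK-TD, although they made up only 7.06% and 7.44% of the FPKM sum in Con-TD. FPKM therefore ranks tRNA rows above protein rows with far more fragments, and levels of different classes are compared here only in fragments.

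**Figure D1:**
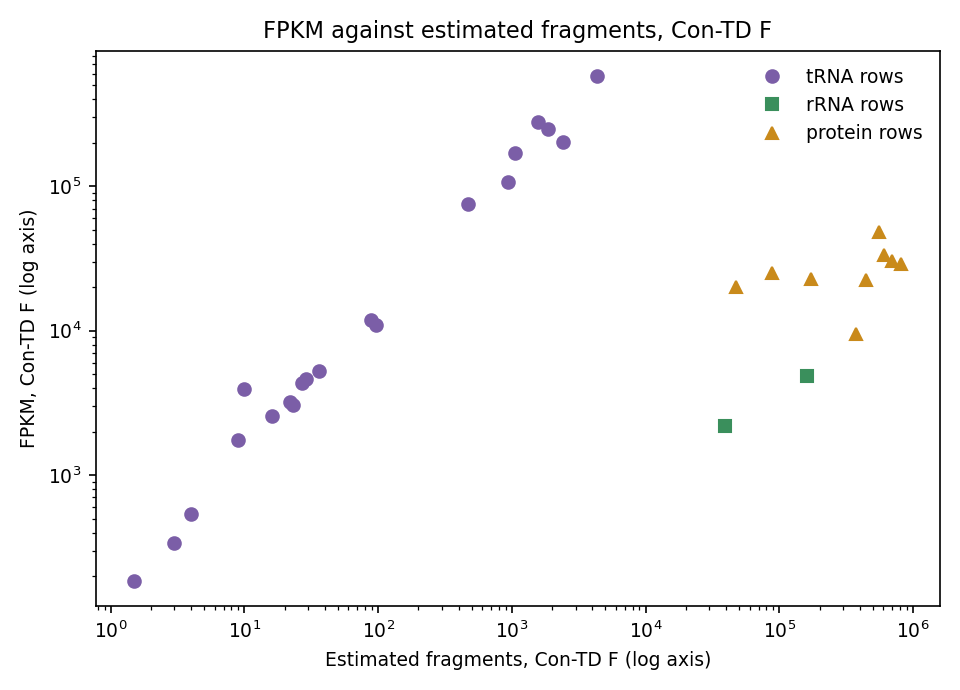
FPKM (y axis, log scale) against estimated fragments (x axis, log scale) of the mitochondrial rows above 0 in library Con-TD F, with 1 point per row and colour by class. The tRNA rows reach the highest FPKM with at most 4328 fragments, while the protein rows, at 9529.73 to 48530 FPKM, hold 47405 to 818493 fragments.

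Exact zeros, which may be failed estimates, stand in 8 of the 37 mitochondrial rows. In all 4 libraries mt-Co1, mt-Atp8, mt-Atp6, mt-Co3 and mt-Ts1 are listed at 0. The first encodes the catalytic subunit of cytochrome c oxidase (complex IV), mt-Co3 another core subunit of it, and mt-Atp6 and mt-Atp8 some of the membrane subunits of ATP synthase (complex V). These are genes that every muscle fibre uses, so the zeros cannot be read as absence. mt-Nd4 and mt-Nd4l, subunits of complex I, were at 28927.3 and 20190.6 FPKM in library F and at 30854.1 and 19702.4 FPKM in library G, and both are listed at 0 in the MCK-TD libraries. The remaining row is mt-Tf (phenylalanine), listed at 0 in library F and at 469.969, 306.629 and 929.519 FPKM in the others, which are 3, 2 and 6 fragments. For mt-Tf a 0 lies within counting error, since a count of 0 allows up to 3 fragments.

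The other zeros fell on whole groups of genes that overlap in the annotation. mt-Co1 shares 3 bases with mt-Ts1, mt-Atp8 shares 43 with mt-Atp6, mt-Atp6 shares 1 with mt-Co3, and mt-Nd4l shares 7 with mt-Nd4. In each of these 3 groups the genes are at 0 together in the same libraries. The mt-Nd4l and mt-Nd4 pair held an estimated 865899 and 858834 fragments in Con-TD, against 0 and 0 in MCK-TD. No mitochondrial row had more than 941263 fragments in any library. Overlapping genes were not at 0 everywhere: mt-Nd5 and mt-Nd6 share 14 bases and held 422124 to 544470 fragments together in each library. The overlapping groups of mt-Nd1 with mt-Ti and mt-Tq, of mt-Nd2 with mt-Tw, and of mt-Ts2 with mt-Tl2 hold no 0 either. How the authors' software came to these zeros was not tested, and no fold change is given for any row that holds one.

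Nuclear copies of these genes offer a second reading of the same sequences, because 9 rows of the table belong to nuclear genes that match a mitochondrial gene over at least 100 bases at 90% identity or more. Gm10222, whose transcript is identical to mt-Nd4l over 294 bases, was at 20189.1 and 19696.5 FPKM in Con-TD and at 27251.5 and 23205.4 in MCK-TD. In the Con-TD libraries these are almost the values of mt-Nd4l itself, and in the MCK-TD libraries, where mt-Nd4l is listed at 0, they are higher than in Con-TD. The difference did not pass the test (log2 change 0.33, SE 0.14, limma adjusted p = 0.151). Gm13340, 97.6% identical to mt-Co1 over 1545 bases, was at 8050.19 and 8760.13 FPKM in Con-TD and 11205.7 and 9271.13 in MCK-TD (log2 change 0.28, SE 0.15, limma adjusted p = 0.226), although mt-Co1 is listed at 0 in all of them. Both nuclear rows were called higher as TPM (equal sums over all rows; 0.8 for Gm10222 and 0.75 for Gm13340) and after quantile normalisation (0.7 and 0.75), and both were near 0 with median of ratios scaling (0.08 and 0.02). Gm10925, identical to mt-Atp6 over 678 bases, was at 32330.2 FPKM in library F and is listed at 0 elsewhere. The copies not described so far whose match had a value stood well below it. In library F, Gm11408 was at 14.6227 FPKM against 22705.4 for mt-Nd6, and Gm13341 at 10759.4 against 48530 for mt-Co2. Fragments of near-identical copies cannot be assigned to either gene with certainty, so the nuclear rows measure neither gene alone.

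**Figure D2:**
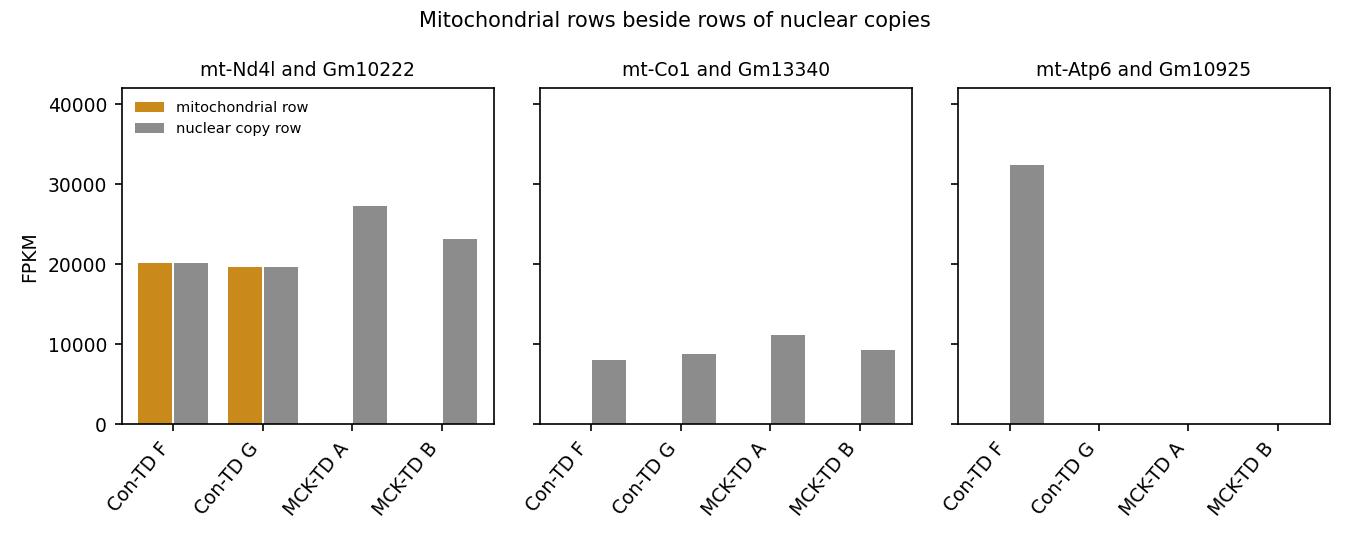
FPKM (y axis, linear, from 0) of 3 mitochondrial rows and of the nuclear gene that matches each, by library; a missing bar is a row listed at 0. mt-Nd4l and Gm10222 stand at nearly equal height in Con-TD F and Con-TD G, and of the pair Gm10222 alone has bars in both MCK-TD libraries, at 27251.5 and 23205.4.

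The genotypes were compared with limma's moderated test on log2(FPKM + 1) over the 12474 rows whose mean FPKM was 1 or more, with Benjamini-Hochberg adjustment over all of them and a call at an adjusted p under 0.05. Of these rows 30.8% were called, 24.3% higher and 6.45% lower in MCK-TD, and the median change of all rows was 0.22. Changes are MCK-TD minus Con-TD. Tested were 32 mitochondrial rows, and the 29 above 0 in every library (7 protein, 20 tRNA and 2 ribosomal RNA rows) are the ones described by a change. Of these 29, 3 were called higher and 4 lower, and all 7 were tRNA rows. In bulk tissue, fewer cells or mitochondria and less RNA in each cannot be told apart.

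None of the 7 protein rows was called, with adjusted p between 0.217 and 0.809 by limma, and 0 of them had an unadjusted p under 0.05. Under other scalings, mt-Nd2 and mt-Cytb were called higher as TPM, which divides each library by its FPKM sum and so mostly by tRNA rows, and mt-Nd2 and mt-Nd5 were called higher after quantile normalisation. As deposited, their changes ran from -0.21 to 0.31, with a median of 0.05 that turned to -0.21 under median of ratios scaling. Of the complex I subunits, mt-Nd1 was at 33584 and 36199.2 FPKM in Con-TD and at 38317.5 and 34078.3 in MCK-TD, and the groups overlap. mt-Nd2 was at 22296.8 and 23970.3 in Con-TD and at 28902.1 and 25237 in MCK-TD, higher in both MCK-TD libraries but by less than the test asks (log2 change 0.22, SE 0.14, limma adjusted p = 0.291; -0.03 under median of ratios scaling). mt-Nd3 was at 25159.9 and 28820.2 in Con-TD and at 25156.9 and 21448.2 in MCK-TD, with MCK-TD A all but level with Con-TD F.

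The other complex I rows likewise lay close together. mt-Nd5 was at 9529.73, 8318.05, 9340.57 and 7880.43 FPKM by library, with overlapping groups. mt-Nd6, the only protein gene of the minus strand, was at 22705.4, 20700.5, 20534.1 and 18325.5 in that order, lower in both MCK-TD libraries by a log2 change of -0.16 (SE 0.14, limma adjusted p = 0.415), which turned to 0.31 as TPM and 0.0 after quantile normalisation. Among the subunits of other complexes, mt-Cytb, the cytochrome b of complex III, was at 30472.8, 32900.6, 43522 and 35488.5. It had the highest change of the protein rows (log2 0.31, SE 0.17, limma adjusted p = 0.217), and its groups do not overlap. mt-Co2, the subunit of complex IV that receives electrons from cytochrome c, was at 48530, 54742.9, 62751.1 and 50591.2, with overlapping groups.

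The proportions of the protein rows to each other can be read within a library. As a share of the fragments of the 7 rows, mt-Cytb was 23.5% and 24.0% in Con-TD and 27.4% and 26.5% in MCK-TD. The share of mt-Nd1 was 20.7% and 21.2% against 19.3% and 20.4%, and that of mt-Co2 19.1% and 20.4% against 20.2% and 19.3%. The smaller rows shifted more for their size, mt-Nd3 from 2.99% and 3.25% to 2.44% and 2.47%, and mt-Nd6 from 5.86% and 5.07% to 4.33% and 4.58%. The groups overlap for mt-Co2 and not for the other rows named here. These shares do not depend on the scaling between libraries, and with 2 libraries against 2 an exact permutation test cannot give a p below 1 in 3.

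The 2 ribosomal RNA rows were not called either as deposited. mt-Rnr1, the RNA of the small mitochondrial ribosomal subunit, was at 2175.78, 1985.25, 1974.94 and 1990.35 FPKM by library, with overlapping groups (log2 change -0.07, SE 0.11, limma adjusted p = 0.659); as TPM it was called higher (0.4, adjusted p = 0.0497). mt-Rnr2, the RNA of the large subunit, was at 4836.54, 4639.33, 3669.89 and 3818.94. Both MCK-TD libraries were below both Con-TD libraries, with means of 3744 ± 105 and 4738 ± 139 (SD, n = 2 each; log2 change -0.34, SE 0.11, limma adjusted p = 0.0831). The direction held under every scaling tried except that to TPM, where the change was 0.13, and the row passed the test under median of ratios scaling (adjusted p = 0.0295). Together both rows held 0.83% and 0.788% of the fragments in Con-TD and 0.654% and 0.676% in MCK-TD.

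**Figure D3:**
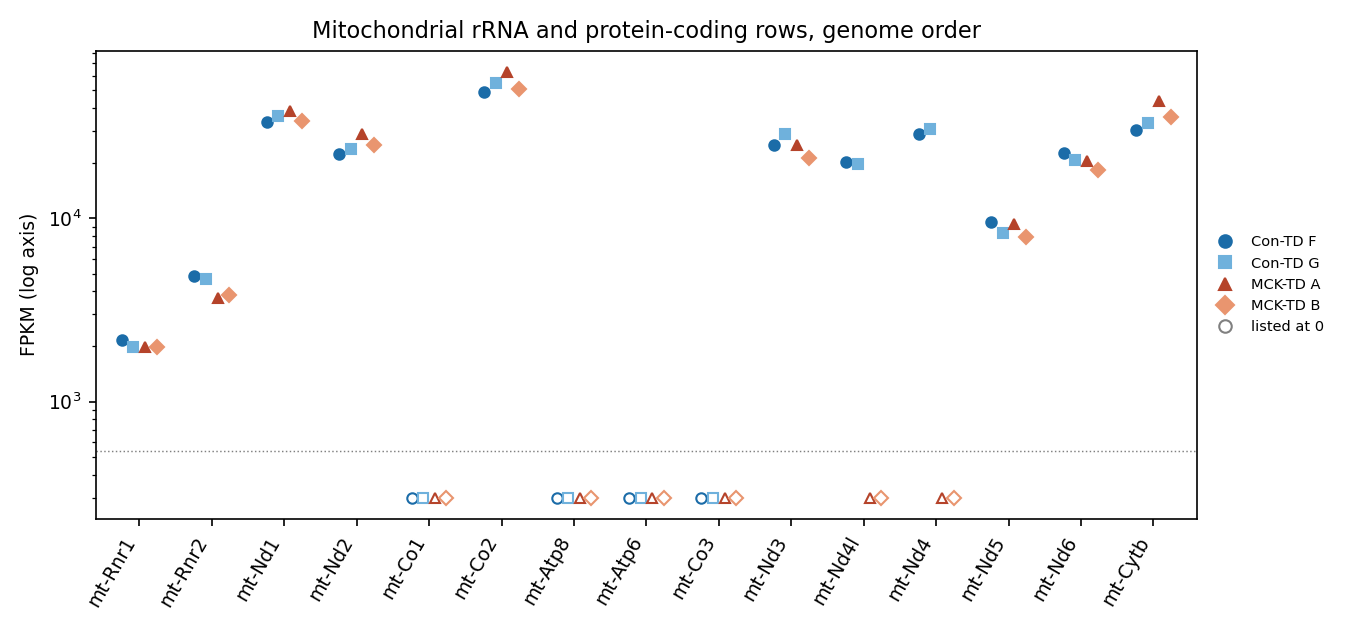
FPKM (y axis, log scale) of the ribosomal RNA and protein-coding rows in genome order, with 1 point per library; open symbols under the dotted line are values listed at 0. The 4 libraries lie close together for each row with values, and the zeros fall on runs of neighbouring genes, in all libraries for mt-Co1 and for mt-Atp8 to mt-Co3 and in the MCK-TD libraries for mt-Nd4l and mt-Nd4.

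The tRNA rows varied far more than the others, both in depth and in change. Their 22 rows held 13036 and 12365 fragments in Con-TD and 7083 and 8300 in MCK-TD. Of these rows 7 had over 300 fragments in every library, 6 of them on the minus strand and mt-Tl1 (leucine) on the plus strand. No other tRNA row had more than 162 fragments in any library, and of the 20 rows above 0 in every library 10 had under 50 in all. The 7 minus-strand rows above 0 held 10348, 10334, 5203 and 6397 fragments in libraries F, G, A and B, against 2688, 2028, 1878 and 1897 for the 13 plus-strand rows. Minus-strand rows were thus the larger part in every library, and their sum was lower in both MCK-TD libraries than in either Con-TD library. The median change of the 20 rows above 0 was -0.37 and the range -1.93 to 1.61, and the median lay above 0 when the values were rescaled to TPM (0.1) or quantile normalised (0.03).

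The 4 rows called lower were the neighbours mt-Ta, mt-Tn, mt-Tc and mt-Ty. mt-Ta was at 250722 and 246778 FPKM in Con-TD and at 142620 and 132411 in MCK-TD, which are 1871, 1720, 1016 and 933.5 fragments. The MCK-TD libraries are well below both Con-TD libraries (log2 change -0.86, SE 0.15, limma adjusted p = 0.0233), but under quantile normalisation, which fixes the values of the most abundant rows, the change turned to 0.06. mt-Tn was at 106669 and 115085 FPKM in Con-TD and at 54801 and 51775.2 in MCK-TD (941, 948.5, 461.5 and 431.5 fragments). Its mean went from 110877 ± 5951 to 53288 ± 2140 FPKM (SD, n = 2 each; log2 change -1.06, SE 0.14, limma adjusted p = 0.0141).

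mt-Tc had the most negative change of the called rows as deposited. It was at 278264 and 294730 FPKM in Con-TD and at 130732 and 113430 in MCK-TD, or 1577, 1561, 707.5 and 607.5 fragments. The counting intervals of these values are 1501 to 1657 fragments in library F and 656 to 762 in library A, far apart (log2 change -1.23, SE 0.17, limma adjusted p = 0.0141). mt-Ty was at 170889 and 182200 FPKM in Con-TD and at 77115.8 and 98804.7 in MCK-TD, or 1065, 1061, 459 and 582 fragments (log2 change -1.02, SE 0.19, limma adjusted p = 0.0259). mt-Tn and mt-Tc stayed called lower under each of the 4 other scalings tried, with changes that varied in size: mt-Tn lay between -1.31 and -0.59 and mt-Tc between -1.49 and -0.38, and after quantile normalisation mt-Tn (-0.8) was the more negative. mt-Ta and mt-Ty were not called when rescaled to TPM (adjusted p = 0.13 and 0.0551) or after quantile normalisation. The 4 rows alone made up 29.6% and 30.4% of the FPKM sum in Con-TD and 21.3% and 19.2% in MCK-TD. A change in them therefore also changes the sum that TPM divides by.

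The group of 4 can also be set against other mitochondrial RNA of the same library. Its summed fragments were 5455 and 5291 in Con-TD and 2644 and 2554 in MCK-TD, which is 41.8% and 42.8% of all tRNA fragments against 37.3% and 30.8%. Per 1000000 fragments of the 7 protein rows, mt-Tc was at 536 and 539 in Con-TD and at 206 and 212 in MCK-TD, and mt-Tn at 320 and 327 against 134 and 150. On this ratio mt-Ta was at 636 and 594 against 296 and 325, and mt-Ty at 362 and 366 against 134 and 203. These ratios do not depend on a scaling factor between libraries, and they describe rows chosen because they were lower. The groups did not overlap on it for rows that were not called either, such as mt-Te (1471 and 1582 against 509 and 1131) and mt-Tl1 (823 and 603 against 458 and 533).

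The 3 rows called higher were smaller in fragments. mt-Tq and mt-Tm are neighbours between mt-Nd1 and mt-Nd2, on opposite strands. mt-Tq was at 10882.3 and 9706.71 FPKM in Con-TD and at 18405.5 and 15358.6 in MCK-TD, or 96, 80, 155 and 128 fragments (log2 change 0.71, SE 0.16, limma adjusted p = 0.0367). The counting intervals of mt-Tq in Con-TD F, 77.8 to 117 fragments, and in MCK-TD B, 107 to 152, overlap. mt-Tq shares 3 bases with mt-Ti, and under median of ratios scaling it was not called (adjusted p = 0.115). mt-Tm was at 11792.4 and 11187.9 FPKM in Con-TD and at 21196.5 and 22978.7 in MCK-TD, or 88, 78, 151 and 162 fragments (log2 change 0.94, SE 0.13, limma adjusted p = 0.0141). It remained called under all 4 other scalings.

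mt-Tv, between the ribosomal RNA genes, had the most positive change of all mitochondrial rows (log2 1.61, SE 0.21, limma adjusted p = 0.0134), on very few fragments. It was at 536.017 and 430.302 FPKM in Con-TD and at 1263.37 and 1702.13 in MCK-TD, or 4, 3, 9 and 12 fragments. The 95% counting intervals reach 10.2 and 8.77 fragments in Con-TD and begin at 4.12 and 6.2 in MCK-TD, so they overlap. The limma test holds no fragment counts, so counting error enters it only through the spread between libraries. The test also draws the spread of each row toward a trend over all rows tested, most of which are not tRNA rows. At the other end, mt-Ts2 (serine) had the most negative change (log2 -1.93, SE 0.66, limma adjusted p = 0.0958), from 3937.38 and 1264.34 FPKM in Con-TD to 824.91 and 416.774 in MCK-TD. Those values are 10, 3, 2 and 1 fragments, and the row did not pass the test; without Con-TD F its change was -1.11, less negative than that of mt-Tc then (-1.28), and without Con-TD G -2.75. mt-Td (aspartate) had 1.5, 4, 4 and 4 fragments (184.609, 526.934, 515.694 and 521.093 FPKM; log2 change 0.73, SE 0.53, limma adjusted p = 0.332), and no difference was detectable at this depth.

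mt-Te had the highest FPKM of any mitochondrial row. It was at 579970 and 657358 FPKM in Con-TD and at 245374 and 460142 in MCK-TD, or 4328, 4583, 1748 and 3244 fragments. Both MCK-TD libraries were below both Con-TD libraries, yet MCK-TD A and B lay far apart and the row did not pass the test (log2 change -0.88, SE 0.36, limma adjusted p = 0.133). Quantile normalisation fixes the values of the most abundant rows, so the change of 0.0 that it gave mt-Te does not bear on this difference. The other minus-strand row of depth, mt-Tp (proline), was at 75220.2, 65234.8, 110213 and 79960.5 FPKM by library, higher in both MCK-TD libraries by a log2 change of 0.42 (SE 0.22, limma adjusted p = 0.212), and it was called as TPM (0.89, adjusted p = 0.0454). mt-Tl1 was at 202384, 156293, 137716 and 135263 in that order (log2 change -0.38, SE 0.19, limma adjusted p = 0.201), a change that turned positive as TPM (0.09) and after quantile normalisation (0.44). The other 8 tRNA rows, mt-Ti, mt-Tw, mt-Tk, mt-Tg, mt-Tr, mt-Th, mt-Tl2 and mt-Tt, held 2 to 51 fragments per library, with changes from -0.67 to 0.4 and limma adjusted p from 0.118 to 0.872. Of these, mt-Tg and mt-Tt were called higher as TPM (0.87 and 0.83) and after quantile normalisation (0.81 and 0.71). Minus-strand rows as deposited did not all differ in 1 direction: mt-Tq and mt-Tp had positive changes, and mt-Ta, mt-Tn, mt-Tc, mt-Ty and mt-Te negative ones.

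**Figure D4:**
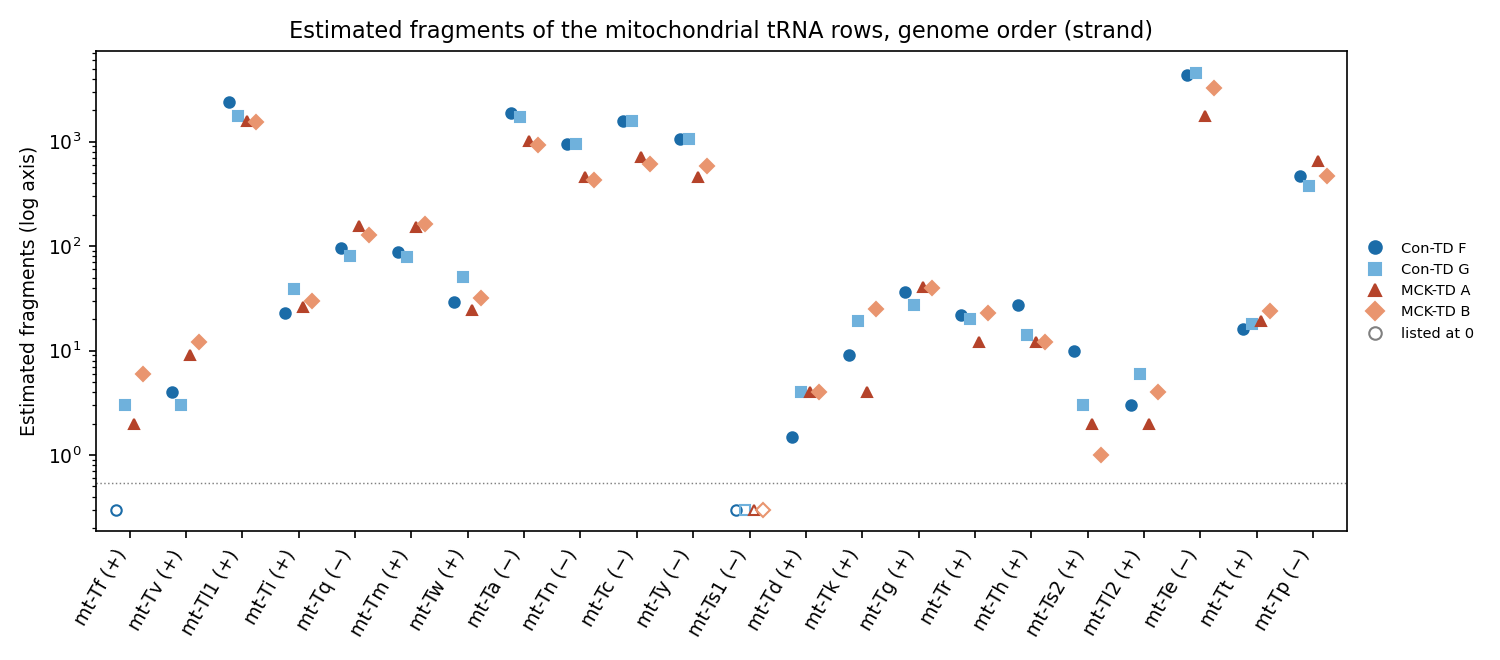
Estimated fragments (y axis, log scale) of the 22 tRNA rows in genome order, with the strand in brackets and 1 point per library; open symbols under the dotted line are values listed at 0. The run from mt-Ta to mt-Ty lies between 431.5 and 1871 fragments, with both MCK-TD libraries under both Con-TD libraries in each, and most plus-strand rows lie under 50.

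**Figure D5:**
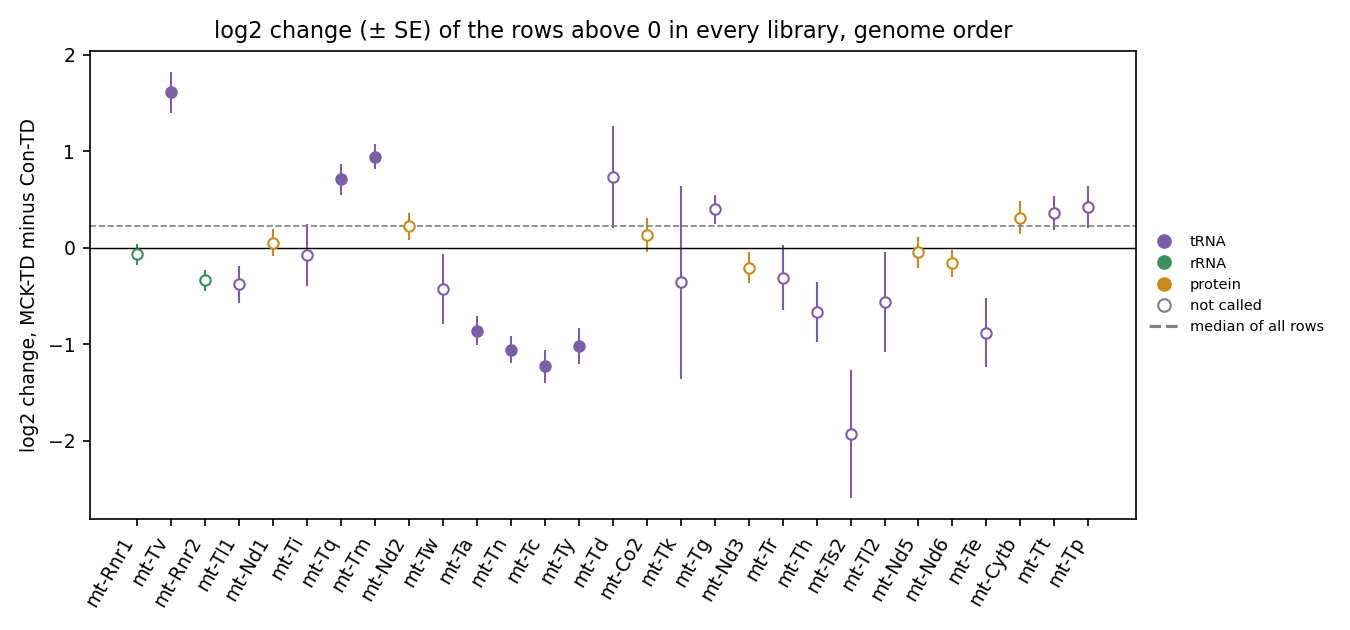
Change in log2(FPKM + 1), MCK-TD minus Con-TD, with its SE (y axis), for the 29 rows above 0 in every library in genome order; filled symbols were called and the dashed line is the median of all rows, 0.22. Protein and ribosomal RNA rows lie between -0.34 and 0.31, 4 filled tRNA symbols form a low run from mt-Ta (turned to 0.06 by quantile normalisation) to mt-Ty, and the other 3, mt-Tv, mt-Tq and mt-Tm, lie between 0.71 and 1.61.

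The 7 calls rest on small groups. None was called when any 1 of the 4 libraries was left out, nor without the minimum on mean FPKM (adjusted p = 0.0561 to 0.797); calls over all rows then numbered 62 to 162 and 2043, against 3837. Without a library the changes lay between -1.34 and -0.8 for the 4 lower rows and between 0.58 and 1.82 for the 3 higher ones. Rows are called where the libraries of a group agree, so small movement was built into the choice of these rows. The minimum on mean FPKM cannot alter the change of a row, only its p-value. With 1 library left in a group the test passes few rows of any kind, so the calls lost in that way say little about the mitochondrial rows. That does not hold for the calls lost without the minimum, where all 4 libraries were kept. There the calls depend on which rows enter the fit.

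Nuclear genes that act on mitochondrial RNA and DNA were read from the same test, as lists chosen by function. Symbols shared by several tested rows were left out of the counts of these and the later lists. Of 16 tested genes for processing, modification and CCA addition of mitochondrial tRNAs, 3 were called higher and 0 lower, where 24.3% of all rows were called higher, and their median change was 0.32. Trit1, which adds an isopentenyl group next to the anticodon of some tRNAs, was at 2.42 and 3.19 FPKM in Con-TD and at 7.37 and 9.08 in MCK-TD (log2 change 1.28, SE 0.17, limma adjusted p = 0.014). Elac2, the 3′ endonuclease, was at 7.78 and 10.0 against 15.1 and 17.7 (log2 change 0.82, SE 0.16, adjusted p = 0.0294). Trmt5, which methylates a guanosine next to the anticodon, was at 3.61 and 3.3 against 6.16 and 5.7 (log2 change 0.64, SE 0.11, adjusted p = 0.0236). Under median of ratios scaling and quantile normalisation Trit1 remained called, and Elac2 and Trmt5 were not called. The list then had 1 call higher and 1 lower under each of these, and 9 higher as TPM.

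Among 17 genes for stability, polyadenylation and decay of mitochondrial mRNA, 5 were called higher and 0 lower, beside 24.3% and 6.45% of all rows, with a median change of 0.14. Rexo2, which degrades very short RNAs, was at 40.7 and 44.6 FPKM in Con-TD and at 79.3 and 99.3 in MCK-TD (log2 change 1.04, SE 0.15, limma adjusted p = 0.0159). Pde12, which removes poly(A) tails in mitochondria, had a log2 change of 0.79 (SE 0.13, adjusted p = 0.0204) from 2.21 and 2.12 to 4.84 and 4.12 FPKM. Ptcd1, known in human cells to bind mitochondrial leucine tRNAs, had one of 0.77 (SE 0.19) with an adjusted p of 0.0497, just inside the threshold. Pde12 was not called after quantile normalisation, and Ptcd1 neither then nor under median of ratios scaling; the list had 10 calls higher as TPM, 2 with median of ratios and 1 higher and 1 lower after quantile normalisation.

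Of the machinery that transcribes and copies the circle, the genes called as deposited were few. For transcription, 1 of 9 was higher and 0 lower (median change 0.11), and for ribosomal RNA modification and ribosome assembly 2 of 13 were higher and 0 lower (median 0.24), against 24.3% higher over all rows. As TPM these counts were 4 and 10 higher, and after quantile normalisation 0 higher and 1 lower in each list. Mterf4, listed as Mterfd2 and a member of both lists, was at 5.57 and 5.53 FPKM in Con-TD and at 9.64 and 9.19 in MCK-TD (log2 change 0.67, SE 0.1, limma adjusted p = 0.0166), and was not called after quantile normalisation. Ddx28, a helicase for assembly of the large mitochondrial ribosomal subunit, was the other (log2 change 0.67, SE 0.16, adjusted p = 0.0435). It was called under neither median of ratios scaling nor quantile normalisation.

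For replication and maintenance of mitochondrial DNA, 0 of 10 genes were called higher and 2 lower, where 6.45% of all rows were called lower, and the median change was 0.05. Mgme1, listed as 8430406I07Rik and a nuclease for the ends of replicating mitochondrial DNA, was at 6.27 and 5.27 FPKM in Con-TD and at 2.18 and 1.84 in MCK-TD (log2 change -1.17, SE 0.14, limma adjusted p = 0.0125). Twinkle, listed as Peo1 and the helicase of the replication fork, was at 6.51 and 8.5 against 3.52 and 2.62 (log2 change -1.06, SE 0.19, adjusted p = 0.0238). Mgme1 was called under every scaling tried, and Peo1 under each except that to TPM (adjusted p = 0.053), where the list had 5 calls higher and 1 lower.

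The nuclear partners of the mitochondrially encoded subunits were mostly not called. Of 35 complex I subunits with a test result, from a list of 36, 0 were called higher and 4 lower (median change -0.06), beside 24.3% and 6.45% of all rows. Among the 4 were the iron-sulfur subunits Ndufs1, from 119 and 123 to 79.3 and 74.6 FPKM (log2 change -0.65, SE 0.1, limma adjusted p = 0.0168), and Ndufs7 (-0.64, SE 0.15, adjusted p = 0.0413), and the accessory subunit Ndufc1 (-0.58, SE 0.13, adjusted p = 0.0386). None of these 3 was called as TPM, and only Ndufs1 when rescaled without mitochondrial and small RNA rows. The count for complex I moved widely with scaling, to 10 higher and 0 lower as TPM, 1 lower without mitochondrial and small RNA rows, 12 lower with median of ratios and 7 lower after quantile normalisation. No subunit was called among 9 of complex III (median 0.02) and 13 of complex IV (median -0.01), where TPM gave 5 and 3 higher. Of 15 subunits of complex V, 1 was called lower, Atp5g2, a gene for the c subunit of the rotor (log2 change -0.51, SE 0.09, adjusted p = 0.024), and the median was 0.04; as TPM 4 were higher and 0 lower, and 3 were lower with median of ratios scaling and 3 after quantile normalisation.

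Other features of the tissue moved with the genotype. Skeletal muscle fibre markers define the labelled tissue and were abundant in every library, with a summed FPKM of 108579 and 101035 in Con-TD and 59182 and 61840 in MCK-TD. Of 8, 7 were called lower, beside 6.45% of all rows. Atp2a1, the calcium pump of fast fibres, led them (log2 change -1.61, SE 0.13, limma adjusted p = 0.00778), followed by the fast-fibre genes Actn3 (-1.53, SE 0.19) and Myh4 (-1.52, SE 0.22). The member not called, Mb, for the oxygen-binding myoglobin, named after its values were seen, was at 1044 and 1900 FPKM in Con-TD and at 3940 and 2325 in MCK-TD (log2 change 1.1, SE 0.41, adjusted p = 0.111). As TPM the list had 4 calls lower and 1 higher. Slow and oxidative fibre markers with a test result were mixed, 1 of 7 higher and 2 lower, with Atp2a2 at 1.89 (SE 0.37), Myl3 at -3.02 (SE 0.29) and Myh2 at -0.67 (SE 0.16). Tnnc1, the member without a test result, enters only the summed FPKM of the list, which was 972, 1802, 1162 and 952 by library. Those counts stand beside 24.3% higher and 6.45% lower over all rows. Macrophage markers were called higher in 4 of 5, again beside 24.3% of all rows, led by Cd68 (log2 change 2.76, SE 0.2), Lyz2 (2.36, SE 0.24) and Cd14 (1.68, SE 0.2). The member not called, Itgam, named after its values were seen, had a change of 0.02 (SE 0.17), and Emr1 was not tested. The summed FPKM of the list was 20.4 and 27.5 in Con-TD and 120 and 91.6 in MCK-TD.

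The remaining marker lists had at most 1 call each, where 24.3% of all rows were called higher and 6.45% lower. For endothelial markers 1 of 5 was called lower, with sums of 25.7 and 32.4 FPKM in Con-TD and 21.0 and 14.7 in MCK-TD. For fibroblast markers it was 1 of 5, with sums of 224 and 284 against 154 and 197, and for cardiac markers 1 of 2, with sums of 8.74 and 13.3 against 4.79 and 3.87. Of 3 adipocyte and 3 erythroid markers 0 were called; the adipocyte sums were 8.12 and 22.8 against 3.03 and 5.17, and the erythroid sums, 742, 2804, 1684 and 1002 by library, overlapped. No member of any list named here was called when any 1 library was left out. No marker of any list was at 0 in all libraries. These are RNA levels of marker genes in bulk tissue, not proportions of cells, and their part in the mitochondrial values was not tested.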

How the data were processed

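RNA of mouse muscle was sequenced in 4 libraries, 2 per genotype. The deposited table gives FPKM per gene, computed by the authors; per the submitters' processing notes, STAR, Cufflinks and the mm9 build were used, in roles not stated there. The fragments per library (22500000 to 24100000) were estimated from the tRNA rows, a step chosen after the values were seen. Genotype alone was fitted with limma 3.58.1 (R 4.3.3) to log2(FPKM + 1), so changes of low rows are understated, with 2 residual degrees of freedom and an intensity trend, two-sided, with Benjamini-Hochberg adjustment over 12474 rows. The fit was tested on simulated data drawn from its own variance model, which holds no counting error of rows with few fragments. Mitochondrial rows with an exact 0 are given by library and enter no count of called mitochondrial rows and no median of their class; of all rows tested, 373 hold a 0 and stay in the fit. The 37 rows were matched by symbol to GENCODE M21, whose build is GRCm38, for gene order, strand, overlap and sequence only; coordinates are not given. Nuclear copies were found with blastn 2.17.0.

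Members and gene lists were chosen with earlier results of these data known. Named were all protein and ribosomal RNA rows; tRNA rows with a 0 in some libraries, the 3 highest by mean FPKM and the 3 with the largest change in each direction; and up to 3 called members of each list. mt-Tq, mt-Ty, mt-Tl1 and mt-Tp were named after their values were seen. Alternatives, 12 in all, were another pseudocount (0.1), no minimum or one of 5 on mean FPKM, 4 scalings, no trend, and leaving out each library; counting rows with a 0 was added after seeing the data.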

Additional observations from a re-analysis of the deposited data

How the results depend on the processing

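The count of mitochondrial calls was 7 as reported and again 7 with a pseudocount of 0.1, a minimum mean FPKM of 5, no trend, rescaling over rows neither mitochondrial nor small RNA, and median of ratios scaling, the last with mt-Rnr2 called and mt-Tq not. It was 11 when rescaled to TPM, 9 after quantile normalisation and 9 when rows with an exact 0 were counted, the added pair being mt-Nd4 and mt-Nd4l, whose MCK-TD values are zeros. It was 0 without the minimum on mean FPKM and 0 without any 1 library (0 to 0), with 1 row and 1 to 5 rows at an unadjusted p under 0.05. Calls over all rows were 3837, 7147 when rescaled to TPM, 2043 without the minimum, and 62 to 162 without a library. Higher calls were 79.0% as deposited, 95.8% rescaled to TPM, 83.6% rescaled without mitochondrial and small RNA rows, 54.8% with median of ratios and 48.8% with quantile normalisation, and all rows had medians of 0.22, 0.6, 0.27, 0.01 and -0.05 under these settings.

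The median of the protein rows moved from 0.05 to 0.52 rescaled to TPM, 0.15 with quantile normalisation and -0.21 with median of ratios. That of the tRNA rows moved from -0.37 to 0.1 rescaled to TPM and 0.03 with quantile normalisation, and to between -0.66 (without MCK-TD B) and 0.01 (without Con-TD G) when a library was left out. That of the ribosomal RNA rows moved from -0.2 to 0.27, -0.14 without mitochondrial and small RNA rows, -0.46 and 0.0 with the 4 scalings.

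Rescaled to TPM, changes turned positive for mt-Rnr1 (0.4), mt-Rnr2 (0.13), mt-Tl1 (0.09), mt-Ti (0.39), mt-Tw (0.04), mt-Tk (0.11), mt-Nd3 (0.26), mt-Tr (0.16), mt-Nd5 (0.42) and mt-Nd6 (0.31). Rescaled without mitochondrial and small RNA rows, mt-Nd5 turned to 0.01. With median of ratios, mt-Nd1 (-0.21), mt-Nd2 (-0.03) and mt-Co2 (-0.13) turned negative. After quantile normalisation the sign changed or was lost for mt-Rnr1 (0.07), mt-Tl1 (0.44), mt-Nd1 (-0.03), mt-Ti (0.22), mt-Ta (0.06), mt-Nd5 (0.56), mt-Nd6 (0.0) and mt-Te (0.0). For mt-Te, the highest mitochondrial row in every library, that method fixes the value. Leaving out a library gave changes on both sides of 0, or reaching 0.0 as rounded, for mt-Rnr1 (-0.13 to 0.0), mt-Nd1 (-0.03 to 0.14), mt-Td (-0.02 to 1.48), mt-Nd5 (-0.18 to 0.07), mt-Ti (-0.51 to 0.35), mt-Tw (-0.89 to 0.02), mt-Tk (-1.69 to 0.97), mt-Co2 (-0.03 to 0.28) and mt-Tr (-0.79 to 0.17). Of these rows mt-Ta was called as reported. No paired analysis was possible because the groups share no replicate number. Depth limits the 10 of 20 tRNA rows above 0 that held under 50 fragments in every library.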
